A study of Mus musculus with 9 samples.

Results

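Circular RNAs (circRNAs) are closed loops that form when a splice donor joins an acceptor lying upstream of it. Reads across such back-splice junctions were counted in C2C12 cells, a mouse myoblast line of skeletal muscle origin that fuses into myotubes in culture. The circRNAs described here come from 4 host genes whose proteins repair, bend or fuse muscle membranes: Dysf, Myof, Bin1 and Elmo1. Every row of the deposited table whose host identifier maps to one of these genes was taken, which gave 75 circRNAs of 37751 and 4 host genes of 6943. Dysf had 19 of them, Myof 28, Bin1 10 and Elmo1 18. The 3 groups were proliferating cells below confluence in medium with fetal bovine serum (day 0), and cells kept for 3 days (day 3) or 6 days (day 6) in medium with horse serum, which was given at confluence. Each group had 3 libraries. All 9 came from the same cell line, with no transgene or other genetic change named in the labels. Whether separate cultures stood behind the libraries of a day is not given in the labels. The p-values therefore measure only how these libraries vary, which may be technical. The RNA came from whole cultures, in which a change in the share of myotubes cannot be told apart from a change in circRNA per cell.

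Dysferlin, the product of Dysf, is a membrane-anchored protein with a row of calcium-binding C2 domains. It takes part in resealing tears of the muscle plasma membrane, and its loss causes limb-girdle muscular dystrophy and Miyoshi myopathy. Myoferlin (Myof) is its close relative in the ferlin family and is known for a role in myoblast fusion and membrane trafficking. Bin1, of the amphiphysin family, carries a BAR domain that curves membranes and shapes the T-tubules of muscle fibres. Elmo1 partners with DOCK-family exchange factors to switch on the GTPase Rac, which drives actin remodelling in cell engulfment and, in flies, in myoblast fusion.

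The junctions that carried most reads are shown for the 3 hosts whose sequences are printed, since the joined exon ends define each circle. Each line gives the last 30 bases of the donor exon in capitals and then the first 30 bases of the acceptor exon in lower case, 5′ to 3′ on the host's strand. They were read from the GENCODE M21 transcripts of build GRCm38. All are named by the first and last exon of 1 GENCODE transcript per gene. That transcript has 55 exons and 6660 bases for Dysf and 53 exons and 6902 bases for Myof. It has 15 exons and 2091 bases for Bin1 and 22 exons and 5464 bases for Elmo1. The exon numbers rest on the 2 ends of each circle, and the exons inside it were not observed.
Dysf exons 37 to 40: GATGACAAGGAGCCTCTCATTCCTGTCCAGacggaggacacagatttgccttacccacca
Dysf exons 31 to 40: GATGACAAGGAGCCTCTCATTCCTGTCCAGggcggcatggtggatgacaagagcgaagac
Dysf exons 31 to 36: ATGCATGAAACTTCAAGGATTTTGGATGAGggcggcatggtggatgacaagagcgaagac
Myof exons 43 to 45: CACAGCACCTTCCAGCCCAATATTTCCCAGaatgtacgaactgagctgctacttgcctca
Myof exons 39 to 42: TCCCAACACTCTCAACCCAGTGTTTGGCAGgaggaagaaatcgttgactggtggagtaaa
Myof exons 35 to 37: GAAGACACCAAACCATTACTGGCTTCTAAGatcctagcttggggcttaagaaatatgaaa
Elmo1 exons 8 to 13: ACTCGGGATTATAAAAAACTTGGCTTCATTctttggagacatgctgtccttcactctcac
Elmo1 exons 9 to 13: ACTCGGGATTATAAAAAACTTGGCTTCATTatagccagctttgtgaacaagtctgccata

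The first 2 Dysf lines share their donor side, and the second and the last Dysf line share their acceptor side. Likewise the Elmo1 pair share a donor and differ in the acceptor. In build GRCm38, Dysf exons 37 to 40 lie at chr6:84149675-84152409 on the + strand, Myof exons 43 to 45 at chr19:37913337-37916563 on the - strand, Bin1 exons 10 to 14 at chr18:32424820-32432425 on the + strand and Elmo1 exons 8 to 13 at chr13:20274520-20290493 on the + strand. Each of these 4 circRNAs held the most reads of its host over all 9 libraries and is called its leading circRNA. They were thus chosen from the same reads that are compared between days. All 4 lie within the coding exons.

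Across the 9 libraries, 208787 to 443955 back-splice reads were counted per library, and the 4 hosts held 5107 reads in all (0.191%). Reads are given as deposited, and levels as CPM, the usual scaling to library size, with TMM factors. A host's CPM is relative to the reads of circRNAs with a host, and that of a single circRNA to all back-splice reads. The cultures were checked by the circRNAs of marker genes. The 12 of 17 myotube marker genes with any read summed to 205 to 405 CPM at day 0, 9530 to 11228 at day 3 and 11154 to 15150 at day 6. All 10 proliferation genes had reads, and they summed to 7758 to 9647 CPM at day 0, 1825 to 2051 at day 3 and 646 to 1125 at day 6. Of 8 myoblast markers 5 had reads, with sums of 212 to 402, 365 to 550 and 388 to 608 CPM. The defining markers Myod1, Myf5 and Myog were at 0 in all libraries. Of the adipocyte and the osteoblast markers only Pparg and Runx2 had reads, at 94.9 to 422 and 235 to 601 CPM over the 9 libraries. These levels overlapped the myoblast sums, so the markers do not tell these lineages apart. None of 5 endothelial or blood markers had reads. The part of the myotube share in the results below was not tested.

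Summed over their circRNAs, all 4 hosts rose at day 6 against day 0. The log2 difference was largest for Dysf, then Elmo1, Bin1 and Myof, though these sizes were not tested against each other. Dysf circRNAs had 40, 62 and 29 reads in the day 0 libraries, 277, 263 and 345 at day 3 and 266, 305 and 663 at day 6. These correspond to 158 ± 75.0, 947 ± 61.6 and 1390 ± 153 CPM (mean ± SD, n = 3 each). Every day 3 and day 6 library lay above every day 0 library. By edgeR's quasi-likelihood test with Benjamini-Hochberg adjustment over 4135 hosts, Dysf rose by 2.59 ± 0.31 on the log2 scale at day 3 against day 0 (SE, adjusted p = 2.2e-07). At day 6 against day 0 it rose by 3.14 ± 0.31 (adjusted p = 2.3e-09). The rise did not rest on the leading circRNA, since without it the remaining Dysf circRNAs gave 2.96 at day 3 (adjusted p = 0.00214) and 3.55 at day 6 (adjusted p = 1.4e-04).

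Myof, the other ferlin, had the highest mean level of the 4 at day 0 and the smallest log2 differences from day 0. Its circRNAs had 128, 72 and 69 reads at day 0, 183, 164 and 143 at day 3 and 153, 158 and 327 at day 6, or 309 ± 63.7, 531 ± 95.2 and 732 ± 46.6 CPM. The libraries of the 3 days did not overlap in CPM. The difference at day 3 against day 0 was 0.78 ± 0.33 and did not pass edgeR's test (adjusted p = 0.265). At day 6 against day 0 Myof rose by 1.24 ± 0.33 (adjusted p = 0.0155). That call was lost without library 2 of day 0 (1.17, adjusted p = 0.0525), without library 3 of day 0 (1.14, adjusted p = 0.0738) or without library 3 of day 6 (1.17, adjusted p = 0.0776). It was also lost when the leading circRNA was left out (0.43, adjusted p = 0.885) or the sum was limited to circRNAs of at least 2 libraries (1.09, adjusted p = 0.0535).

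Bin1, the membrane-bending member, had 5, 44 and 8 reads at day 0, 106, 57 and 85 at day 3 and 88, 81 and 212 at day 6. Its means were 72.9 ± 87.4, 265 ± 73.5 and 426 ± 75.9 CPM. Library 2 of day 0 stood above the other 2, at 173 CPM against 14.9 and 30.4, but below every later library. Bin1 rose by 2.56 ± 0.64 at day 6 against day 0 (edgeR, adjusted p = 0.0091). The difference at day 3 was 1.88 ± 0.63 (adjusted p = 0.103). Without library 2 of day 0 both differences were larger and passed, at 3.54 for day 3 (adjusted p = 4.0e-04) and 4.22 for day 6 (adjusted p = 2.0e-05). The day 3 difference also passed without library 2 of day 3 (2.05, adjusted p = 0.0344) or library 2 of day 6 (1.89, adjusted p = 0.0387), and the day 6 call was lost without library 3 of day 0 (2.21, adjusted p = 0.0509). It was lost too with only the 2 groups in the fit (2.53, adjusted p = 0.105) and without the leading circRNA (1.58, adjusted p = 0.836).

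Elmo1, the fusion-signalling member, had 38, 0 and 23 reads at day 0, 115, 124 and 113 at day 3 and 131, 106 and 124 at day 6. Library 2 of day 0 thus listed no Elmo1 circRNA. The means were 66.9 ± 59.3, 381 ± 51.5 and 462 ± 171 CPM. Elmo1 rose by 2.48 ± 0.63 at day 3 against day 0 (edgeR, adjusted p = 0.0139) and by 2.76 ± 0.64 at day 6 against day 0 (adjusted p = 0.0043). Without library 1 of day 0 the values were 3.09 and 3.36 (adjusted p = 4.2e-05 and 4.7e-06), and without library 2 of day 0 the day 6 value was 2.17 (adjusted p = 0.00401). Without the leading circRNA neither call held (1.28, adjusted p = 0.824, and 2.34, adjusted p = 0.305). Nor did they with only the 2 groups in the fit (adjusted p = 0.173 and 0.123), and DESeq2 did not call day 3 (2.42, adjusted p = 0.111).

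In counts, 2 of the 4 hosts rose at day 3 against day 0, where 3.94% of the 4135 tested hosts were called, 3.05% higher and 0.895% lower. All 4 rose at day 6 against day 0, where 5.63% of hosts were called, 3.85% higher and 1.79% lower. The 4 hosts did not overlap with day 0 in either comparison, as was the case for 20.9% of tested hosts at day 3 and 23.7% at day 6. At day 6 against day 3 the differences were 0.55 for Dysf, 0.46 for Myof, 0.68 for Bin1 and 0.27 for Elmo1, and 0 of 4 passed edgeR's test, whether adjusted or at an unadjusted p under 0.05. DESeq2 also called none after adjustment, with an unadjusted p of 0.0203 for Dysf. In that comparison 0.0726% of hosts were called, 0.0242% higher and 0.0484% lower. Between days 6 and 3 the libraries of Dysf, Myof and Bin1 did not overlap, against 11.2% of hosts, while those of Elmo1 did. Ranked by log2 fold change at day 6 against day 0 among the 4135 hosts, Dysf was number 247 from the top, Elmo1 283, Bin1 302 and Myof 698.

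**Figure D1:**
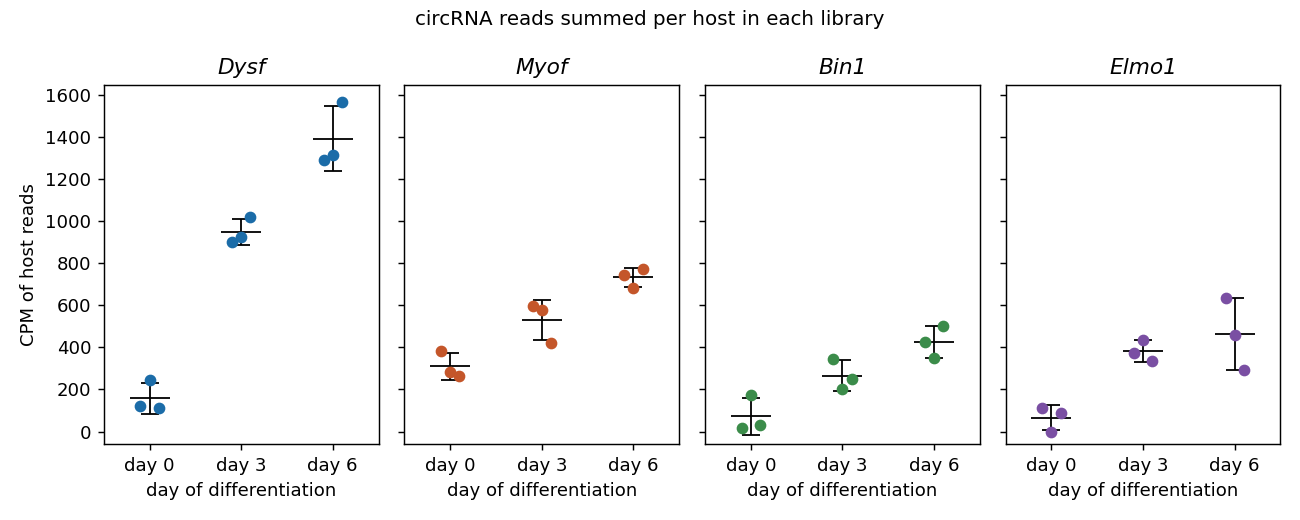
Summed circRNA level of each host in each library, in CPM of host reads, by day of differentiation. Points are libraries, the long tick is the mean and bars are 1 SD (n = 3); Dysf averaged 158, 947 and 1390 CPM at days 0, 3 and 6, and Myof 309, 531 and 732.

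Single circRNAs were sparser than their host sums. Of the 75, 45 were listed in 1 library (60.0%, against 61.4% of all circRNAs). The smallest count above 0 in the table was 2. Only 17 passed the filter on low counts (5 of Dysf, 5 of Myof, 3 of Bin1 and 4 of Elmo1), and these held 85.9% of the reads of the 4 hosts. The other 58 had 2 to 39 reads each over all libraries and a median of 9.5. Of these, 45 were in 1 library and none was in more than 3. They summed to 140 reads at day 0, 218 at day 3 and 362 at day 6.

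The leading Dysf circle, exons 37 to 40 (circRNA.31576), was listed in all 9 libraries. It had 40, 42 and 10 reads at day 0, 147, 190 and 198 at day 3 and 156, 178 and 396 at day 6. It rose by 2.39 ± 0.43 at day 3 against day 0 (edgeR over 8153 circRNAs, adjusted p = 1.9e-04) and by 2.85 ± 0.44 at day 6 against day 0 (adjusted p = 6.3e-06). No day 0 library reached any later one. The longer circle of exons 31 to 40 (circRNA.31569) was absent from all 3 day 0 libraries and present in all 6 later ones, with 59, 33 and 65 reads at day 3 and 39, 33 and 108 at day 6. Set against a floor of 3 reads per day 0 library, it was at least 15.1-fold higher at day 3 and at least 17.2-fold higher at day 6. The adjusted p of edgeR was 1.7e-04 at day 3 and 8.4e-05 at day 6, against counts of 0, and does not test these bounds. This circle passed the filter on low counts only through the later days. With only the 2 groups in the fit, the day 3 calls of both circles were lost (adjusted p = 0.0929 for exons 37 to 40 and 0.0832 for exons 31 to 40), while the day 6 calls held under all 17 alternatives. The circle of exons 31 to 36 (circRNA.31568), which uses the same acceptor, had 0, 0 and 17 reads at day 0, 9, 24 and 41 at day 3 and 64, 30 and 61 at day 6. Its difference at day 6 was 3.03 ± 1.31 (adjusted p = 0.352), so it did not pass. It passed at both days when library 3 of day 0, which held all its day 0 reads, was left out (adjusted p = 0.0272 for day 3 and 0.00419 for day 6). The other tested Dysf circles, exons 33 to 40 (circRNA.31573) and exons 37 to 41 of the transcript Dysf-210 (circRNA.31577), had no reads at day 0 and 62 and 64 reads in all, and each was at 0 in 3 of the 6 later libraries.

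Of the 5 tested Myof circles, 1 passed in a comparison. Exons 43 to 45 (circRNA.16260) had 14, 0 and 26 reads at day 0, 49, 54 and 49 at day 3 and 82, 92 and 149 at day 6. In CPM the 3 days did not overlap. This circle rose by 2.89 ± 0.78 at day 6 against day 0 (edgeR, adjusted p = 0.0305), a call that was lost without library 2 of day 0 (2.31, adjusted p = 0.141) or any 1 library of day 6 (2.85 to 2.91, adjusted p = 0.0549 to 0.0794), while without library 3 of day 0 the value was 4.02. The call was also lost with a minimum count of 10 (adjusted p = 0.0702), with no filter (0.140) and with only the 2 groups (0.221). Exons 39 to 42 (circRNA.16263) had 69, 22 and 27 reads at day 0, 35, 35 and 85 at day 3 and 30, 22 and 51 at day 6. Exons 35 to 37 (circRNA.16267) had 16, 42 and 0 reads at day 0, 42, 40 and 0 at day 3 and 11, 11 and 29 at day 6. For both the libraries overlapped between all days, with differences at day 6 against day 0 of -0.24 ± 0.82 and -0.38 ± 1.48 (adjusted p = 1.0 for each). These errors are wide and do not show that the levels were equal, and the test of each circle against the others of Myof called no difference between them (adjusted p = 0.725 for exons 43 to 45, 0.778 for exons 39 to 42 and 1.0 for exons 35 to 37 at day 6 against day 0). The 2 remaining tested Myof circles, exons 29 to 37 (circRNA.16268, 47 reads) and exons 6 to 13 (circRNA.16282, 20 reads), were at 0 in every day 0 library and did not pass.

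The leading Bin1 circle, exons 10 to 14 (circRNA.14853), had 5, 14 and 8 reads at day 0, 78, 42 and 54 at day 3 and 76, 45 and 160 at day 6. It rose by 3.15 ± 0.78 at day 6 against day 0 (edgeR, adjusted p = 0.0123), and the difference at day 3 was 2.45 ± 0.76 (adjusted p = 0.107), which DESeq2 called (2.30, adjusted p = 0.0061). The day 6 call was lost without library 1 of day 0 (2.78, adjusted p = 0.0918), library 1 of day 6 (3.07, adjusted p = 0.0703) or library 3 of day 6 (2.91, adjusted p = 0.149), and likewise with no filter (adjusted p = 0.122) or only the 2 groups (0.0771). Exons 2 to 6 (circRNA.14845) and exons 7 to 14 (circRNA.14851) had 78 and 52 reads over all libraries and passed in no comparison.

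The leading Elmo1 circle, exons 8 to 13 (circRNA.7027), had 7, 0 and 12 reads at day 0, 92, 75 and 85 at day 3 and 71, 40 and 70 at day 6. It rose by 3.52 ± 0.86 at day 3 against day 0 (edgeR, adjusted p = 0.0131) and by 3.20 ± 0.85 at day 6 against day 0 (adjusted p = 0.0254). The day 3 call was lost without library 2 of day 0 (2.95, adjusted p = 0.0669) or library 1 of day 3 (3.44, adjusted p = 0.0613). The day 6 call was lost without library 1 or 2 of day 0, library 1 of day 3 or library 1 of day 6 (2.62 to 3.19, adjusted p = 0.0512 to 0.152). Both calls were also lost with no filter (adjusted p = 0.0583 and 0.131) and with only the 2 groups (0.228 and 0.221). Without library 3 of day 0 the values were 4.53 and 4.22, and with libraries thinned to the smallest total they were 4.10 and 3.78. The shorter circle of exons 9 to 13 (circRNA.7029) had 23, 10 and 12 reads in the day 3 libraries and none in the 6 libraries of days 0 and 6. It did not pass in either direction (adjusted p = 0.422 for day 3 against day 0 and 0.664 for day 6 against day 3). Exons 9 to 14 (circRNA.7030) had reads in all 3 day 6 libraries, 8, 3 and 18, and in 1 of the 6 others, and exons 5 to 15 (circRNA.7023) had 23 reads in 3 libraries.

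Of the 17 tested circRNAs, 3 rose at day 3 against day 0, where 1.58% of 8153 circRNAs were called, 1.31% higher and 0.27% lower. At day 6 against day 0, 5 rose and none fell, where 1.99% were called, 1.47% higher and 0.515% lower. Members whose libraries did not overlap with day 0 numbered 6 at day 3, against 16.1% of circRNAs, and 7 at day 6, against 16.4%. At day 6 against day 3, 0 of the 17 were called by edgeR, 1 had an unadjusted p under 0.05 and 0.0613% of all circRNAs were called, all of them lower. The libraries of 4 members did not overlap between days 6 and 3, against 9.13% of circRNAs. The 9 of the 17 with no read at day 0 passed the filter only through later days, so the counts describe the members that passed and not all 75.

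**Figure D2:**
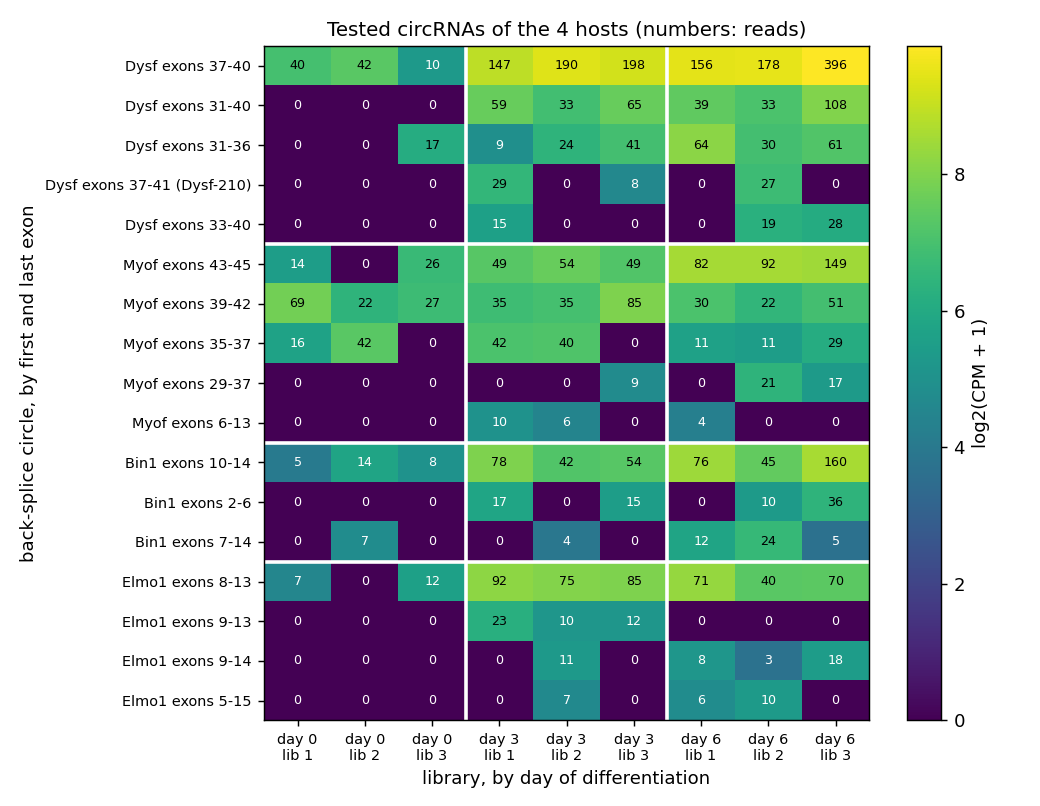
Level of the 17 tested circRNAs in each library, as log2(CPM + 1) in colour with the reads printed in each cell, ordered by host and total reads. Dysf exons 37 to 40 carried 10 to 396 reads in every library, and Dysf exons 31 to 40 had reads in the 6 day 3 and day 6 libraries and in none of day 0.

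Several splice sites were used by more than 1 circle. The donor end of Dysf exon 40 closed 5 circles with 79.0% of the host's reads, while the acceptors of exons 37 and 31 opened circles with 63.2% and 28.8%. The donor of Bin1 exon 14 closed 4 circles with 84.8% of its reads. In Elmo1 the acceptor of exon 8 held 60.3% and the donor of exon 13 held 67.7%. The acceptor of Myof exon 43 held 38.0% of Myof reads. In all, Dysf had 11 acceptor and 9 donor sites among 19 circles, Myof 20 and 20 among 28, Bin1 7 and 5 among 10, and Elmo1 8 and 10 among 18.

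Several circles lay end to end. In Dysf, the circle of exons 31 to 36 (555 nucleotides when spliced) ended where that of exons 37 to 40 (507 nucleotides) began, and the circle of exons 31 to 40 covered both (1062 nucleotides). The Bin1 circles of exons 2 to 6 (435 nucleotides) and 7 to 14 (807 nucleotides) had the same layout, and an untested circle of exons 2 to 14 with 39 reads covered both. In Myof, exons 39 to 42 were followed directly by exons 43 to 45, with no circle listed of exactly exons 39 to 45. An untested circle of exons 17 to 45 with 5 reads spanned both. Of the 75 circRNAs, 72 were deposited as exonic and 3, all of Bin1, as intronic. Both ends of 71 lay at annotated exon edges. These 71 held a median of 8 exons and 807 nucleotides, against 4 exons and 585 nucleotides over all circRNAs with a host and such edges. The difference in length was smaller for the 17 tested members. They had a median of 6 exons and 570 nucleotides, against 4 exons and 536 nucleotides over all tested exonic circRNAs. None of the 71 was a single exon. A length divisible by 3 was found in 35 of 71 (49.3%), against 38.2% over all such circRNAs. It held for 12 of 19 Dysf circles, those of exons 31 to 36, 37 to 40 and 31 to 40 among them, and for 8 of 27 in Myof. Circles that share splice sites are not independent, so no test was made of these shares.

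**Figure D3:**
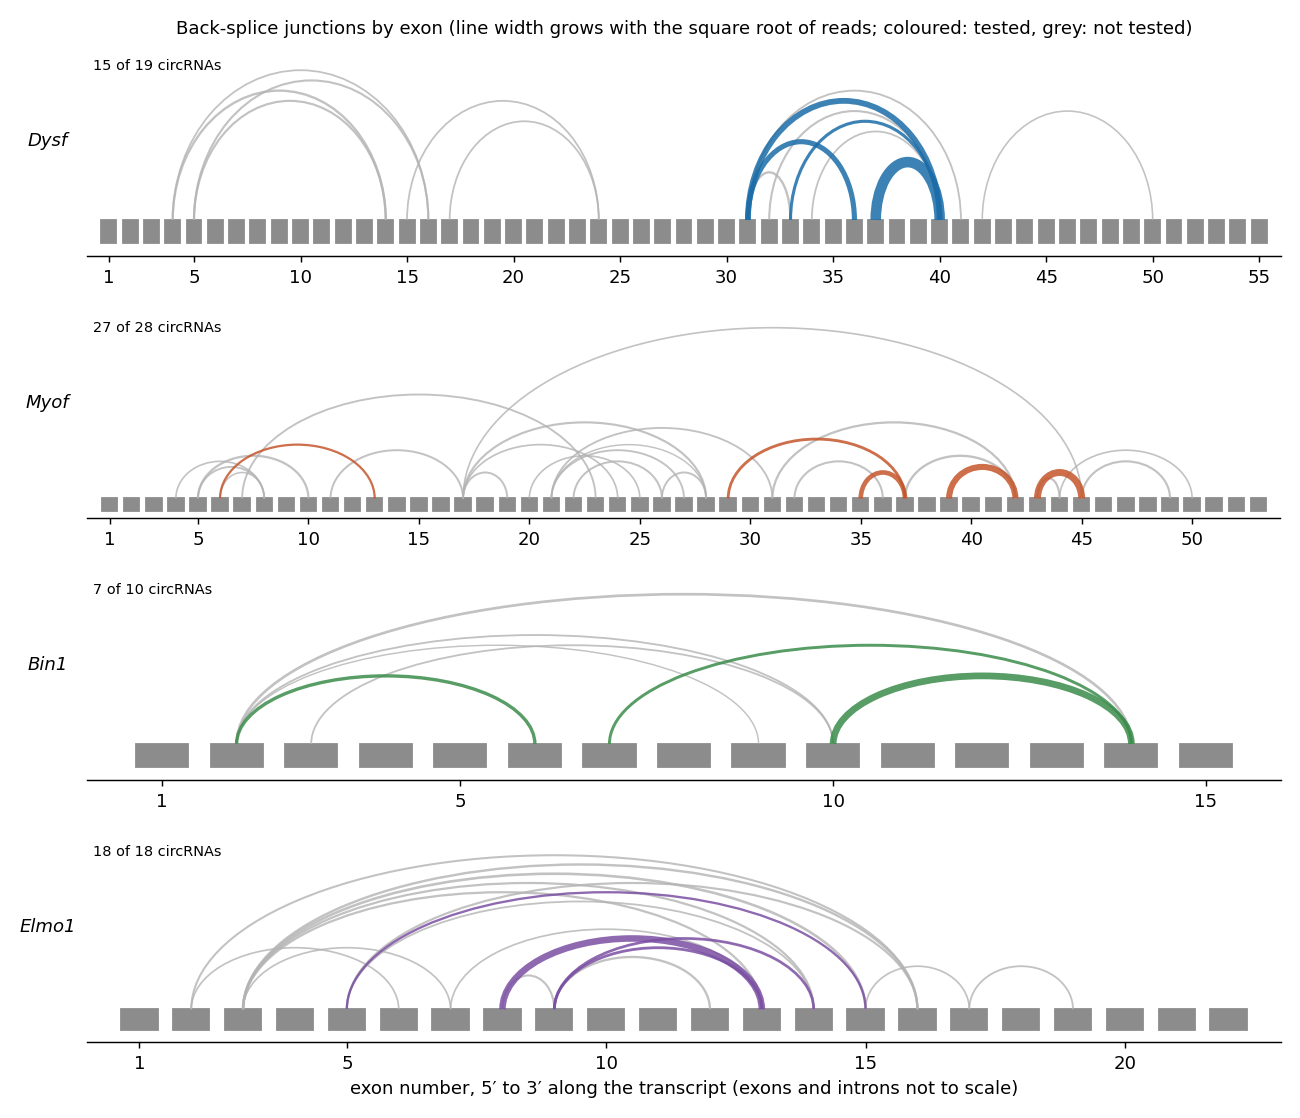
Back-splice junctions by exon number along 1 transcript of each host, the one whose exon count is given in the text. Drawn are 15 of 19 circRNAs of Dysf, 27 of 28 of Myof, 7 of 10 of Bin1 and 18 of 18 of Elmo1. CircRNAs without both ends on the host's transcript are left out. Arcs join acceptor and donor exons, line width grows with the square root of reads and coloured arcs passed the filter; in Dysf the coloured arcs lie over exons 31 to 40, and grey arcs reach over exons 4 to 24, 31 to 41 and 42 to 50.

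After the values had been seen, the exon edges of both ferlins were compared on a codon alignment of their coding sequences, in which 61.6% of 6048 aligned bases were the same. Of 54 Dysf acceptor edges, 47 fell at the same aligned base as a Myof edge. The main Dysf circles lie over exons 31 to 40, which aligned with Myof exons 30 to 38. The tested Myof circles there were exons 35 to 37 and, in part, exons 29 to 37, with 191 and 47 of 1397 Myof reads. Listed Myof circles reached from exon 4 to exon 50 of 53, so having circles does not set this part apart. The acceptor of Myof exon 35 aligned with that of Dysf exon 38, and the Myof circle of exons 35 to 37 aligned over 384 of its 405 bases with Dysf exons 38 to 40, with 63.3% of bases the same. The donor of Dysf exon 40 aligned with that of Myof exon 38, an exon of 12 bases just after this circle. Myof exons 39 to 42 and 43 to 45, which carried most Myof reads, aligned with Dysf exons 41 to 44 and 45 to 47, which lay in no tested Dysf circle of the transcript used. The first 180 bases from the acceptor shared by Dysf exon 38 and Myof exon 35 are printed for both genes. This stretch is more alike than the whole circles, with 68.3% of bases the same. Over the aligned bases of Dysf exons 37 to 40 it was 62.6%. Capitals mark a base that is the same at the aligned place of the other gene, which held for 123 of 180.
Dysf from the start of exon 38: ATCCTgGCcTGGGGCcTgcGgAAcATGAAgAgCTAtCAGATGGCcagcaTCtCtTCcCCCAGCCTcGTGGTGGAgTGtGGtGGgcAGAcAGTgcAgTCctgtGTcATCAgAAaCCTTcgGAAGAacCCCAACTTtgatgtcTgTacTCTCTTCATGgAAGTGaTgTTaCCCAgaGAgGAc
Myof from the start of exon 35: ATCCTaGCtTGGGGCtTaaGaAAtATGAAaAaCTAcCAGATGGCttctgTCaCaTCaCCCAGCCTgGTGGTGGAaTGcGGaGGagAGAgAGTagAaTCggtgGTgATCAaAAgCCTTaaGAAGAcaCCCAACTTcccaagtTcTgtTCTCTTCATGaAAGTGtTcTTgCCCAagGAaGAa

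The balance between the ferlins was described by the ratio of Dysf to Myof reads within each library, which needs no scaling between libraries. As log2 of the reads plus 1, it was -1.65, -0.21 and -1.22 at day 0, 0.60, 0.68 and 1.26 at day 3 and 0.79, 0.94 and 1.02 at day 6. Myof reads thus outnumbered Dysf reads in all 3 day 0 libraries, and Dysf reads outnumbered Myof reads in all 6 later ones. The mean ratio was higher by 1.88 at day 3 and by 1.95 at day 6 than at day 0, each with an exact two-sided permutation p = 0.1, the smallest that 3 against 3 libraries allow. Taken over the leading circRNA of each host alone, the difference from day 0 did not keep this direction (-0.08 at day 3 and -0.77 at day 6); in library 2 of day 0 the leading Myof circle had 0 reads and the leading Dysf circle 42.

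The share of a host's reads held by its leading circRNA separated day 6 from day 3 for Myof and Elmo1. Exons 43 to 45 held 10.9%, 0% and 37.7% of Myof reads at day 0, 26.8%, 32.9% and 34.3% at day 3 and 53.6%, 58.2% and 45.6% at day 6. Day 6 lay above both earlier days without overlap (52.5 ± 6.4% against 31.3 ± 4.0% at day 3, exact permutation p = 0.1, the smallest possible). However, this circle was chosen as leading by its reads over the same libraries. Myof exons 39 to 42 had 118 reads at day 0 against 40 for exons 43 to 45, and 155 against 152 at day 3. Only at day 6 did exons 43 to 45 hold more, with 323 reads against 103. The choice thus favoured a high day 6 share. The p-values for leading shares do not allow for this choice. Elmo1 exons 8 to 13 held 18.4% and 52.2% of Elmo1 reads in the 2 day 0 libraries with any, 80.0%, 60.5% and 75.2% at day 3 and 54.2%, 37.7% and 56.5% at day 6. Day 3 lay above both other days without overlap. The share was 36.6 points higher at day 3 than at day 0 (exact permutation p = 0.2, the smallest that 3 against 2 libraries gave) and differed by -22.4 points at day 6 against day 3 (p = 0.1, the smallest possible). The Dysf share stayed between 53.1% and 72.2% in the 6 later libraries and ranged from 34.5% to 100% at day 0, where 1 library held a single Dysf circle. The Bin1 share overlapped between all days. A test of each circRNA against the others of its host (edgeR's diffSpliceDGE over 6549 circRNAs) called 0 of the 17 members in any comparison. Over all circRNAs tested it called 6 at day 3 against day 0 (0.0916%), 10 at day 6 against day 0 (0.153%) and 1 between days 6 and 3 (0.0153%). At an unadjusted p under 0.05 it found 1, 2 and 0 members in the same order. The lowest member was Dysf exons 31 to 40, with an adjusted p of 0.295 at day 3 and 0.270 at day 6 against day 0; no second tool was run for this test.

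**Figure D4:**
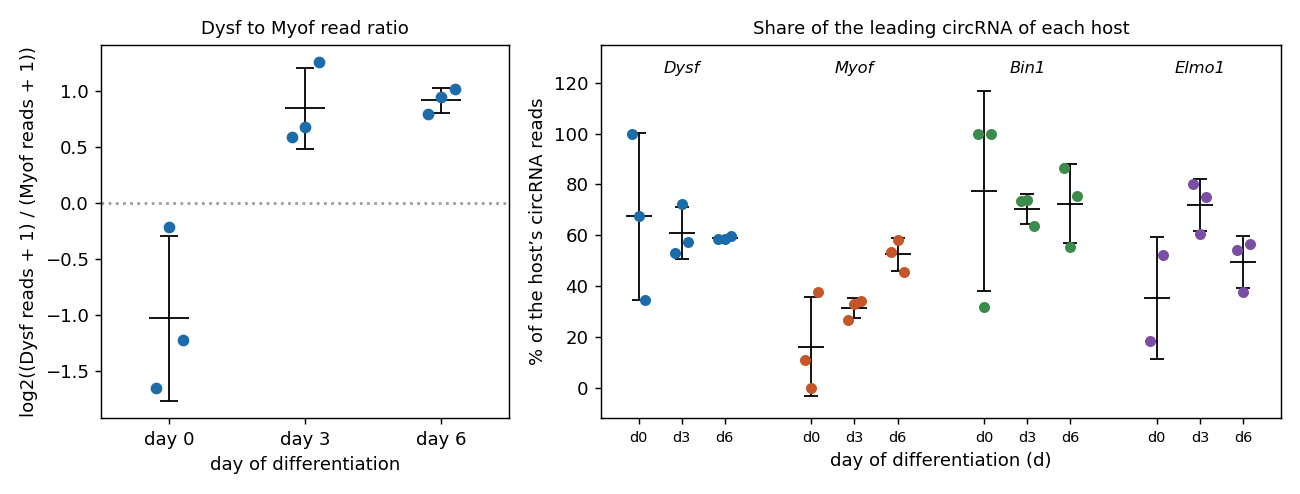
Left, log2 ratio of Dysf to Myof reads (each plus 1) per library and day; right, percent of each host's reads in its leading circRNA. Points are libraries, long ticks means and bars 1 SD (n = 3, and n = 2 for Elmo1 at day 0, where library 2 had no Elmo1 read); the ratio lies below 0 in the 3 day 0 libraries and above 0 in the other 6.

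The hosts nearest to each member in profile were found among 1527 hosts with reads in all 9 libraries. The measure was the root mean square difference of centred log2(CPM + 1) over the libraries. The member hosts were left out as candidates, so how near members lay to each other is not given. For Dysf these were Lrch1 (0.30), Tcf4 (0.44) and Gm13483 (0.45), against a median difference of 1.52 over all hosts compared. For Myof they were Spire1 (0.21), Rbm20 (0.22) and Gigyf2 (0.23), with a median of 0.81. Bin1 was nearest to Dclk1 (0.61), Gm13483 (0.71) and Lrch1 (0.80), with a median of 1.73. Elmo1, with a library without reads among the 9, was nearest to Stau2 (0.95), Ccdc141 (1.26) and Gse1 (1.42), with a median of 2.75.

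Other genes of the same processes were taken as lists. Of 44 membrane repair genes, 26 had a circRNA and 18 were tested as hosts. Beside the 2 ferlins, 1 of the 16 others rose at day 3 against day 0 and 1 at day 6 against day 0, and none fell. At day 3 this was Mcoln1, a lysosomal calcium channel, at 1043 ± 157 CPM against 336 ± 109 at day 0 (log2 difference 1.63 ± 0.32, edgeR, adjusted p = 6.7e-04). Its day 6 libraries overlapped with day 0 and did not pass (650 ± 219 CPM, 0.95 ± 0.31, edgeR, adjusted p = 0.0671). At day 6 the host that rose was Ahnak, a large scaffold protein that binds dysferlin and annexins, at 435 ± 266 CPM against 128 ± 41.6 at day 0 (1.75 ± 0.50, edgeR, adjusted p = 0.0284). Its day 6 libraries were uneven, at 722, 388 and 196 CPM, against 176 CPM in the highest of day 0. The median difference of the 16 was 0.20 at day 3 and 0.36 at day 6, beside -0.02 and -0.13 over all tested hosts.

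Of 45 myoblast fusion genes, 31 had a circRNA and 28 were tested. Beside Elmo1, 1 of 27 rose at day 3 and 2 at day 6, and none fell. At day 6 these included Trio, an exchange factor for Rac, with 2421 ± 497 CPM at day 6 against 1421 ± 167 at day 0 (log2 difference 0.77 ± 0.21, edgeR, adjusted p = 0.0169). The medians of the 27 were 0.12 and 0.23.

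Of 34 membrane curvature and T-tubule genes, 26 had a circRNA and 18 were tested. Beside Bin1, 1 of 17 rose at both days and none fell. This was Ryr1, the calcium release channel of the sarcoplasmic reticulum and also on the myotube marker list, at 2401 ± 304 CPM at day 3 and 3668 ± 688 at day 6, against 232 ± 126 at day 0 (3.36 ± 0.27 and 3.97 ± 0.27, edgeR, adjusted p = 2.6e-11 and 3.5e-13). The medians of the 17 were 0.57 and 0.12. The shares called in these lists are to be read against the 3.05% and 3.85% of all tested hosts called higher.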

How the data were processed

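Total RNA of C2C12 cells was sequenced after a circRNA enrichment whose steps, per the labels' protocols, were a bead clean-up and a DNase treatment. The authors deposited raw read counts per circRNA and library. Per the submitters' processing notes, BWA and build GRCm38.p4 (mm10) were used. No caller of circRNAs is named there, and its filters are unknown. Deposited counts entered the fits unaltered. Rows without a host (0.927% of reads) were left out of host sums. The fits used edgeR 4.0.16 in R 4.3.3, with its quasi-likelihood test on all 9 libraries and 3 group means, TMM scaling, filterByExpr (minimum count 5, minimum total 15), a prior count of 0.125 and an adjusted p threshold of 0.05 over all features. A circRNA with no reads in a group was set against a floor of 3 reads per library. Floors cover counting error only, and reads without molecular identifiers are not independent molecules. Named are the 4 hosts, their tested circRNAs, called hosts of the 3 lists, of which 1 is not reported here, and the 3 nearest profiles. Members and lists were chosen with earlier results of these data known. Ratios and shares were tested with exact permutation tests. The scripts were tested on simulated data. Alternatives were other scaling, filters, DESeq2 1.42.0, the 2 groups alone, thinning, a replicate block and leaving out each library. Libraries of a day differed beyond sampling noise, so all 9 were counted.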

Additional observations from a re-analysis of the deposited data

How the results depend on the processing

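Dysf kept its rise under all 20 alternatives at both days, with 2.39 to 3.02 on the log2 scale at day 3 and 2.95 to 3.58 at day 6 against day 0. Values below are log2 differences unless named otherwise. Without the leading circRNA, Myof gave 0.43 at day 6 against day 0 and -0.093 at day 6 against day 3, Bin1 1.58 at day 6, and Elmo1 1.28 and 2.34 at days 3 and 6 against day 0. With circRNAs of at least 2 libraries, Myof gave 1.09 at day 6 against day 0 and Elmo1 -0.15 at day 6 against day 3. With only the 2 groups in the fit, Bin1 gave 2.53 at day 6, and Elmo1 2.48 and 2.73 at days 3 and 6, none past the threshold, and DESeq2 gave 2.42 for Elmo1 at day 3 (adjusted p = 0.111). The ratio of Dysf to Myof over the leading circRNAs changed by -0.076, -0.77 and -0.70 at day 3 against day 0, day 6 against 0 and day 6 against 3. The Bin1 leading share over circRNAs of at least 2 libraries differed by 3.78 points at day 3 against 0 and -8.59 at day 6 against 3. The cause of these changes was not tested.

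Leaving out each library in turn gave leading share differences, in percentage points, of -23.0 to 9.79 (Dysf, day 3 against 0), -25.0 to 7.80 (day 6 against 0) and -5.91 to 3.68 (day 6 against 3), -29.7 to 4.36, -27.5 to 6.55 and -4.75 to 10.7 for Bin1, and -2.71 to 31.0 for Elmo1 at day 6 against 0. The ratio at day 6 against 3 lay between -0.053 and 0.28. Host differences lay between 1.14 and 1.40 for Myof at day 6, 1.36 and 3.54 for Bin1 at day 3, 2.04 and 4.22 for Bin1 at day 6, and -0.025 and 0.51 for Elmo1 at day 6 against 3. Single circRNAs that changed sign were circRNA.31569 (-0.10 to 0.40) and circRNA.31577 (-6.57 to 1.58, and 0.0011 with DESeq2 size factors and 0.0019 with DESeq2) at day 6 against 3, circRNA.16263 (-0.22 to 0.73 at day 3, -0.49 to 0.24 at day 6), circRNA.16267 (-0.18 to 1.84 and -0.91 to 1.09), circRNA.14845 (-0.69 to 0.95, day 6 against 3) and circRNA.14851 (-4.50 to 3.59, day 3). None of these was called. For -6.57 of circRNA.31577 and for -4.50 and 3.59 of circRNA.14851, the library left out held all reads of its day. These are therefore fitted values against counts of 0 and not measured differences.

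Over all hosts, 163, 233 and 3 were called at day 3 against 0, day 6 against 0 and day 6 against 3. DESeq2 called 286, 460 and 19, fits of 2 groups 139 at day 6 against 0 and 1 at day 6 against 3, fits without leading circRNAs 61, 80 and 0 (unfiltered hosts gave 6 at day 6 against 3), and leaving out a library 2 to 8 in the last comparison. Over all circRNAs 129, 162 and 5 were called, with DESeq2 272, 466 and 20, with 2 groups 30, 70 and 0 (293 at an unadjusted p under 0.05), unfiltered 9 and with a library left out 5 to 8 in the last. Use within host gave 2 and 0 with 2 groups at day 3 against 0 and day 6 against 3, and 1 to 5, 3 to 11 and 0 to 2 with a library left out. Of called hosts 77.3% were higher at day 3 and 68.2% at day 6, against 67.1% and 57.6% with library totals alone and 59.1% and 53.5% with DESeq2. Of called circRNAs 82.9% and 74.1% were higher, against 62.5% and 58.4% with DESeq2. The median over all hosts was -0.02 and -0.13, and -0.15 and -0.24 with library totals alone.

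The replicate block changed the call of Bin1 at day 3 (2.21, adjusted p = 0.0226) and the sign of circRNA.16267 (1.70 at day 6 against 0, 1.18 at day 6 against 3); it called 188, 259 and 4 hosts. Libraries of the same number did not deviate together (correlations -0.033 to -0.001), and 0 of 9 correlated best with their own number. The test within hosts was not run with the block or DESeq2. The 58 circRNAs under the filter on low counts, 45 of them listed in 1 library, gave no test.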
